A study of Mus musculus with 14 samples.

Results

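The 83 genes described here encode the proteins of the cytosolic ribosome, the machine that reads mRNA and joins amino acids into protein. They were the rows of the deposited table of 54532 genes annotated as protein coding whose name is Rpl or Rps with a number, plus Rpsa, Rplp0, Rplp1 and Rplp2. Kinases of the Rps6k family and entries with names ending in -ps, most of them pseudogenes, were left out by that rule. Fau, which encodes a ribosomal protein fused to another protein, was left out too. Of the 83 genes, 80 were counted often enough to be tested, 32 of the small subunit and 48 of the large subunit, among 15915 genes tested in all. The remaining 3, Rpl39l, Rpl3l and Rpl10l, are described with the paralogs.

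RNA was sequenced from cells sorted out of the submandibular gland, a salivary gland, of adult mice of the genotype TertCreERT2/+ Rosa26LSL-tdTomato/+. In these mice a Tert allele carries a Cre recombinase activated by tamoxifen, and tdTomato is expressed in cells, and their descendants, in which Cre was active. DAPI- EpCAM+ cells were split into tdTomato+ cells, called Tert+, and tdTomato- cells, called Tert-, with or without 15 Gy of radiation (RT). The groups held 3 libraries of Tert+ cells without RT, 3 of Tert- cells without RT, 4 of Tert+ cells after RT and 4 of Tert- cells after RT. The interval between RT and sorting, the ages and the tamoxifen schedule are not given in the sources used here. All mice carried the Cre and the reporter, so no group shows the gland without them.

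A ribosome holds a small subunit, which decodes the mRNA, and a large subunit, which forms the peptide bonds. Each protein is needed in a fixed ratio to the others, and most of these mRNAs begin with a C followed by an unbroken run of pyrimidines, the 5′ terminal oligopyrimidine (TOP) tract, through which mTOR and LARP1 adjust their translation and stability together. Free Rpl5 and Rpl11 bind Mdm2 with the 5S rRNA when ribosome assembly is disturbed, which links these genes to p53.

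Total counts ran from 5520412 to 15943597 per library, and the shallowest library was Tert- after RT replicate 1. A label field for the cell type names the opposite population to the title in 14 of 14 libraries, and the titles are followed here. The libraries after RT carry library numbers 9 to 16 and those without RT 1, 2 and 5 to 8, so RT and the library number cannot be told apart. Of the markers of the cells sorted for, Epcam was at 60.0 CPM (counts relative to the TMM-scaled library total, mean of 14 libraries). The B cell marker Cd79a was at 2944 CPM. Cd74, also on the list of B cell markers but made by other antigen-presenting cells too, was at 27158 CPM. The 10 B cell markers together, Cd74 among them, took 3.11 to 4.78% of the counts without RT and 3.36 to 4.23% after RT. That share is therefore not one of B cells alone. For 10 general epithelial genes it was 0.0106 to 0.0565% over all libraries. Of the gland's own epithelium, 10 acinar genes took 0.213 to 2.59% and 12 granular duct genes 0.0832 to 1.47%. Transcripts of gland epithelium and of B cells were thus both present, and these shares of different genes do not measure how many cells of each type there were. In such bulk samples fewer cells of a type and less RNA per cell cannot be told apart.

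The starts of 10 genes are shown for the pyrimidine run, which stood at the annotated start in a minority of the family. A RefSeq promoter entry on GRCm38.p6 was found for 63 of the 83 genes, and a run of at least 5 C or T bases (either base in any order, on the gene's strand) that included the annotated start stood in 20 of these 63, 31.7%, against 3191 of 27025 genes in all, 11.8%. Only the annotated start was examined, and a run beginning elsewhere is not counted. Each line below gives the 10 bases before the start and the 20 bases from it, with the run that covers the start in capitals. The genes with a run, 8 of these 10, are over-represented here on purpose. The first 5 genes rose after RT, the next 3 did not pass the test, and the last 2 rose without a run at the annotated start.
Rps18: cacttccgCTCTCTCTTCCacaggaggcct
Rps15a: tttctgccaTCTTCCCTCgccggtgagtga
Rps24: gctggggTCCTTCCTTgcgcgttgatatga
Rps6: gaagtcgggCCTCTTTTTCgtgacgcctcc
Rpl7a: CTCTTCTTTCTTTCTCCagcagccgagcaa
Rpl28: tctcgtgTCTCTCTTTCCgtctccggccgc
Rpl15: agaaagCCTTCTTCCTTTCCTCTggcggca
Rpl35: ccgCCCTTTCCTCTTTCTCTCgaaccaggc
Rpl12: agcaggatccgtcttttcggctttcggctc
Rpl5: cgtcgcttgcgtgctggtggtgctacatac

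These windows lie at chr17:33955646-33955675 (Rps18, minus strand), chr7:118116128-118116157 (Rps15a, minus), chr14:24490668-24490697 (Rps24, plus), chr4:86857348-86857377 (Rps6, minus) and chr2:26910797-26910826 (Rpl7a, plus). The others lie at chr7:4792955-4792984 (Rpl28, plus), chr14:18270967-18270996 (Rpl15, minus), chr2:39005112-39005141 (Rpl35, minus), chr2:32961702-32961731 (Rpl12, plus) and chr5:107900518-107900547 (Rpl5, plus). The run of Rpl7a, at 21 bases the longest in the family, continues upstream of its window. Among genes with an entry, a run was found in 10 of the 28 that rose after RT and in 10 of the 32 tested genes that did not pass.

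Levels differed widely between the genes. CPM per kilobase of the gene length in the deposited table (CPM per kb) put different genes on a common scale, where the median gene stood at 202.5. That length covers all exons of a gene and can exceed that of its mRNA, so the order is approximate. The highest was Rpl36, of the large subunit, with a mean of 1662 CPM per kb over the 14 libraries and a range of 1133 to 2606. Rplp0, which anchors the stalk that recruits elongation factors, followed at 1312, Rps3a1 at 1269, Rps14 at 1160 and Rps27 at 1147, all parts of the small subunit except Rplp0. Each of these 5 overlapped its neighbour in this order over the libraries. Between 10 and 1000 CPM per kb lay 67 of the 80 genes, and 10 lay above.

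**Figure D1:**
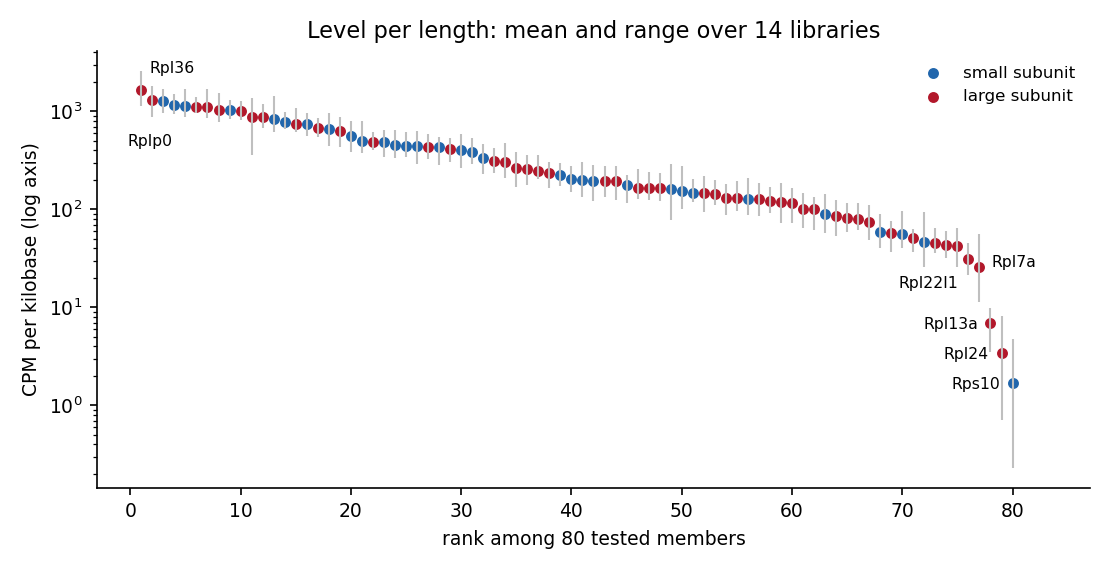
Mean CPM per kilobase of each of the 80 tested ribosomal protein genes over 14 libraries (log axis), ordered from the highest to the lowest, with grey lines from the lowest to the highest library. Rpl36 leads at 1662, and Rpl13a, Rpl24 and Rps10 lie far below the rest at 6.99, 3.45 and 1.70.

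The 3 lowest genes encode ordinary ribosomal proteins. Rps10 was at 1.70 CPM per kb and Rpl24 at 3.45, and Rpl13a was at 6.99. Their exons overlap those of another annotated gene on the same strand over 20.6% (Rps10, with RPS10-NUDT3), 47.0% (Rpl24, with Gm28037) and 29.4% (Rpl13a, with Gm45713) of their length, and each of these overlapping genes was listed at 0 counts. Rps10 held 539 counts over all libraries while its processed copy Rps10-ps2 held 10646. How reads shared between genes were counted is not given in the sources used here, so the levels of these 3 genes are uncertain.

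After RT the family took a larger share of the counts in both populations. Without RT the 83 genes took 4.85, 3.96 and 4.07% of the counts in the Tert+ libraries and 4.49, 4.05 and 4.0% in the Tert- libraries. After RT they took 4.85, 5.24, 6.16 and 6.09% in Tert+ and 7.08, 5.85, 5.84 and 5.07% in Tert-. Of the 8 libraries after RT, 7 lay above every library without RT, and Tert+ after RT replicate 1 lay just under Tert+ without RT replicate 1, the highest of its state. The mean was 4.24 ± 0.357% without RT (SD, n = 6) and 5.77 ± 0.718% after RT (SD, n = 8), a ratio of 1.36. The small subunit share was 1.40 times as large after RT, 1.97 against 2.77%, with all 8 libraries above every library without RT. The large subunit share was 1.33 times as large, 2.26 against 3.0%.

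**Figure D2:**
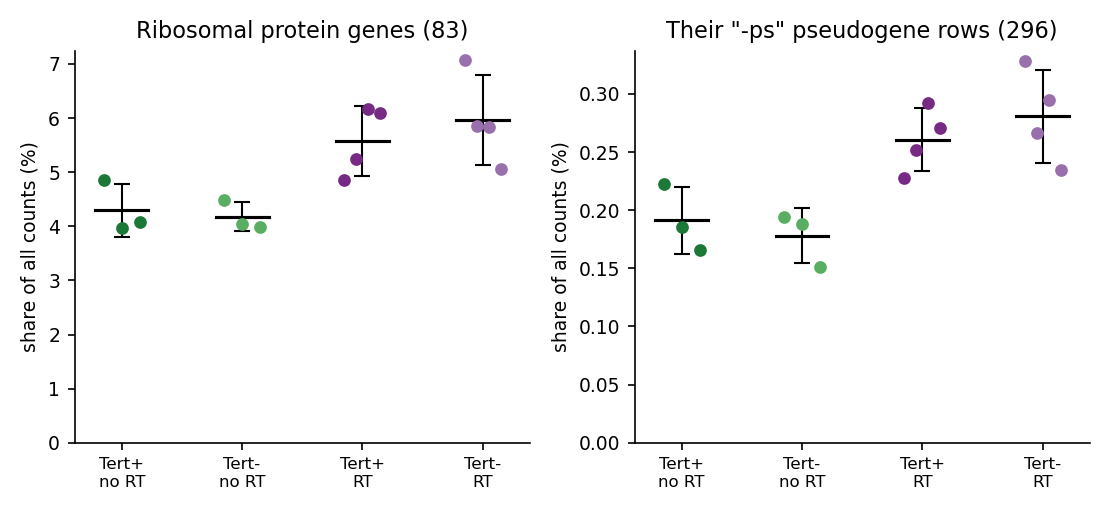
Share of all counts taken by the 83 ribosomal protein genes (left) and by 296 entries named after them with the ending -ps (right), in percent, per library. Lines are group means and bars 1 SD (n = 3, 3, 4 and 4). The gene shares run from 3.96 to 4.85% without RT and from 4.85 to 7.08% after RT, and the highest point is Tert- after RT replicate 1.

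Several library measures moved with RT beside this share. Mitochondrially encoded genes took 0.418 to 1.22% of the counts without RT and 1.13 to 2.86% after RT. Of 8 germinal centre B cell genes, which mark dividing B cells, 6 were lower after RT and 0 higher. Their summed share fell from 0.0275 to 0.0734% without RT to 0.0113 to 0.0148% after RT. Of the 10 B cell markers, 0 passed the test in either direction, and of the 10 epithelial and 12 granular duct genes 0. Of the 10 acinar genes 1 was lower, of the 10 T cell genes 1 and of the 10 macrophage genes 3. These calls are for both populations averaged, where 6.36% of all genes were higher and 7% lower. In Tert+ alone the median log2 fold change was 1.02 for the macrophage genes and 0.57 for the granular duct genes. In Tert- alone it was -1.18 and -1.15, and the difference between populations passed for 0 of these genes. With mitochondrially encoded and immunoglobulin genes left out of the total, the family's share was 4.36% without RT and 6.0% after RT. The part of the cell mixture in the family's change was not tested.

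Tested gene by gene, the comparison of RT with no RT averaged over both populations found 37 of 80 ribosomal protein genes higher and 0 lower (edgeR, adjusted p under 0.05), where 6.36% of all genes tested were higher and 7% lower. The log2 fold change was above 0 in 79 of 80 genes, against 49.4% of all genes, with a median of 0.39 (1.31-fold) against -0.01 over all 15915 genes. Of the 37, 20 belong to the small subunit (of 32) and 17 to the large subunit (of 48), and the median log2 fold change was 0.44 and 0.34. The median rise of the 37 was 1.43-fold. The count rested on single libraries to some extent: it was 16 when unirradiated Tert+ replicate 3 was left out, 21 when unirradiated Tert+ or Tert- replicate 2 was left out, and 20 when unirradiated Tert- replicate 3 was left out. It was also 16 without both Tert+ after RT replicates 3 and 4, 52 without unirradiated Tert+ replicate 1, and 27 without Tert- after RT replicate 1.

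Genes of a short length in the deposited table moved with RT too. Among other genes with a length up to 750 bases (n = 1330) the median log2 fold change was 0.30, but it was 0.0043 over 750 and up to 1500 bases, -0.11 up to 3000, -0.09 up to 6000 and 0.10 above (n = 3975). Ribosomal protein genes had medians of 0.35, 0.39, 0.35, 0.45 and 0.63 in the same classes (n = 5, 22, 37, 14 and 2). In the 4 classes above 750 bases the family's median lay above that of the other genes of like length, and in the class up to 750 bases the medians were close.

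Among genes of the large subunit, Rpl12 had the smallest p-value. Rpl12 (ENSMUSG00000038900, mm10 chromosome 2, 32961559 to 32965345) encodes a protein at the base of the stalk, next to Rplp0. It stood at 233.0, 185.6 and 188.6 CPM in Tert+ and 201.2, 205.8 and 173.7 CPM in Tert- without RT, and at 275.2, 277.4, 296.4 and 321.1 CPM in Tert+ and 400.4, 306.2, 359.9 and 282.3 CPM in Tert- after RT. Every library after RT lay above every library without RT, as in 6 of the 80 genes against 1.82% of all genes. The log2 fold change was 0.67 ± 0.10 (SE; edgeR, adjusted p = 0.00131).

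Rpl5 (ENSMUSG00000058558, chromosome 5, 107900502 to 107909005), of the 5S particle that binds Mdm2, stood at 465.4, 422.5 and 347.6 CPM in Tert+ and 450.7, 426.7 and 344.6 CPM in Tert- without RT. After RT it stood at 614.3, 625.3, 663.6 and 617.6 CPM in Tert+ and 712.0, 591.1, 559.3 and 407.8 CPM in Tert-. All libraries after RT except Tert- replicate 4 lay above every library without RT, and the log2 fold change was 0.55 ± 0.12 (adjusted p = 0.00846). Rpl11, its partner in the 5S particle, had a log2 fold change of 0.36 ± 0.14 and did not pass (adjusted p = 0.0961).

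Rpl7a (ENSMUSG00000062647, chromosome 2, 26910764 to 26913318), of the large subunit, had a wide change at a low counted level. It stood at 38.5, 27.3 and 24.2 CPM in Tert+ and 20.03, 26.1 and 31.1 CPM in Tert- without RT, and at 36.4, 100.1, 54.7 and 35.2 CPM in Tert+ and 57.3, 65.1, 70.1 and 63.2 CPM in Tert- after RT. The Tert+ groups overlapped and the Tert- groups did not. The log2 fold change was 1.11 ± 0.23 (adjusted p = 0.00636). Without Tert+ after RT replicate 2, its highest library, it was 0.90. Of the short sequence stretches of its protein-coding transcripts, 81.2% also occur in other annotated genes, 123 in all. The counts of Rpl7a-ps5 and Rpl7a-ps11 equalled 31.1 and 15.8% of those of Rpl7a. Its call was kept when the counts of entries ending in -ps were added. How shared reads were counted is not given, so the level of Rpl7a and the size of its change are uncertain.

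Other large subunit genes rose by smaller amounts. Rpl17 went from a range of 56.8 to 85.6 CPM without RT (median 64.4) to 89.8 to 142.7 CPM after RT (median 107.8), with no overlap (log2 fold change 0.67 ± 0.13, adjusted p = 0.00405). Rpl26, which can bind the p53 mRNA, went from 242.5 to 348.2 CPM without RT to 350.5 to 553.5 CPM after RT, also with no overlap (0.52 ± 0.12, adjusted p = 0.00916). Rpl41, which encodes the shortest protein of the ribosome, had 0.79 ± 0.18 (adjusted p = 0.0102), and Rpl9 had 0.51 ± 0.11 (adjusted p = 0.00916). Rpl23, another protein that binds Mdm2, had 0.45 ± 0.14 (adjusted p = 0.0411), a call kept in 4 of 14 leave-outs of a single library.

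In the small subunit, Rps19 (ENSMUSG00000040952, chromosome 7, 24884371 to 24889806), the gene most often mutated in Diamond-Blackfan anaemia, separated the states completely. It stood at 2130, 1763 and 1759 CPM in Tert+ and 1756, 2051 and 1761 CPM in Tert- without RT, and at 2389, 2161, 2696 and 2990 CPM in Tert+ and 3747, 2768, 2664 and 2414 CPM in Tert- after RT. The log2 fold change was 0.54 ± 0.11 (adjusted p = 0.00650). Rps25, which is needed for initiation at some internal entry sites, also did not overlap, at 470.8 to 563.3 CPM without RT and 564.9 to 801.2 CPM after RT (0.45 ± 0.10, adjusted p = 0.0101).

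Rps27a (ENSMUSG00000020460, chromosome 11, 29545846 to 29548109) encodes ubiquitin fused to a small subunit protein. It stood at 219.7, 159.2 and 153.8 CPM in Tert+ and 262.6, 159.0 and 218.2 CPM in Tert- without RT, and at 189.4, 472.7, 569.6 and 501.0 CPM in Tert+ and 513.4, 424.1, 321.6 and 264.9 CPM in Tert- after RT. Tert+ after RT replicate 1 was the single library after RT that fell within the range without RT. The log2 fold change was 1.06 ± 0.22 (adjusted p = 0.00736).

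Rps18, in the head of the small subunit, ranged from 964.6 to 1260 CPM without RT and from 1235 to 1969 CPM after RT (0.57 ± 0.11, adjusted p = 0.00462). Rps24, another gene mutated in Diamond-Blackfan anaemia, ranged from 359.9 to 561.8 and from 491.9 to 903.7 CPM (0.68 ± 0.14, adjusted p = 0.00688). Rps13 had 0.49 ± 0.11 (adjusted p = 0.00773) and Rps15a 0.59 ± 0.13 (adjusted p = 0.00965). Rps12 had 0.68 ± 0.20 (adjusted p = 0.0336), with its highest value in Tert- after RT replicate 1, without which it was 0.50 (adjusted p = 0.0417). Its call was kept in 8 of 14 leave-outs of a single library, with an adjusted p of up to 0.0922. It was lost without unirradiated Tert+ or Tert- replicate 2 or 3, or without Tert+ after RT replicate 2 or 3. Rps10 had the largest log2 fold change of all, 1.66 ± 0.46 (adjusted p = 0.0276), at 0.531 to 3.98 CPM without RT and 2.75 to 10.9 CPM after RT, where counts are few, and kept its call in 10 of 14 such leave-outs.

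**Figure D3:**
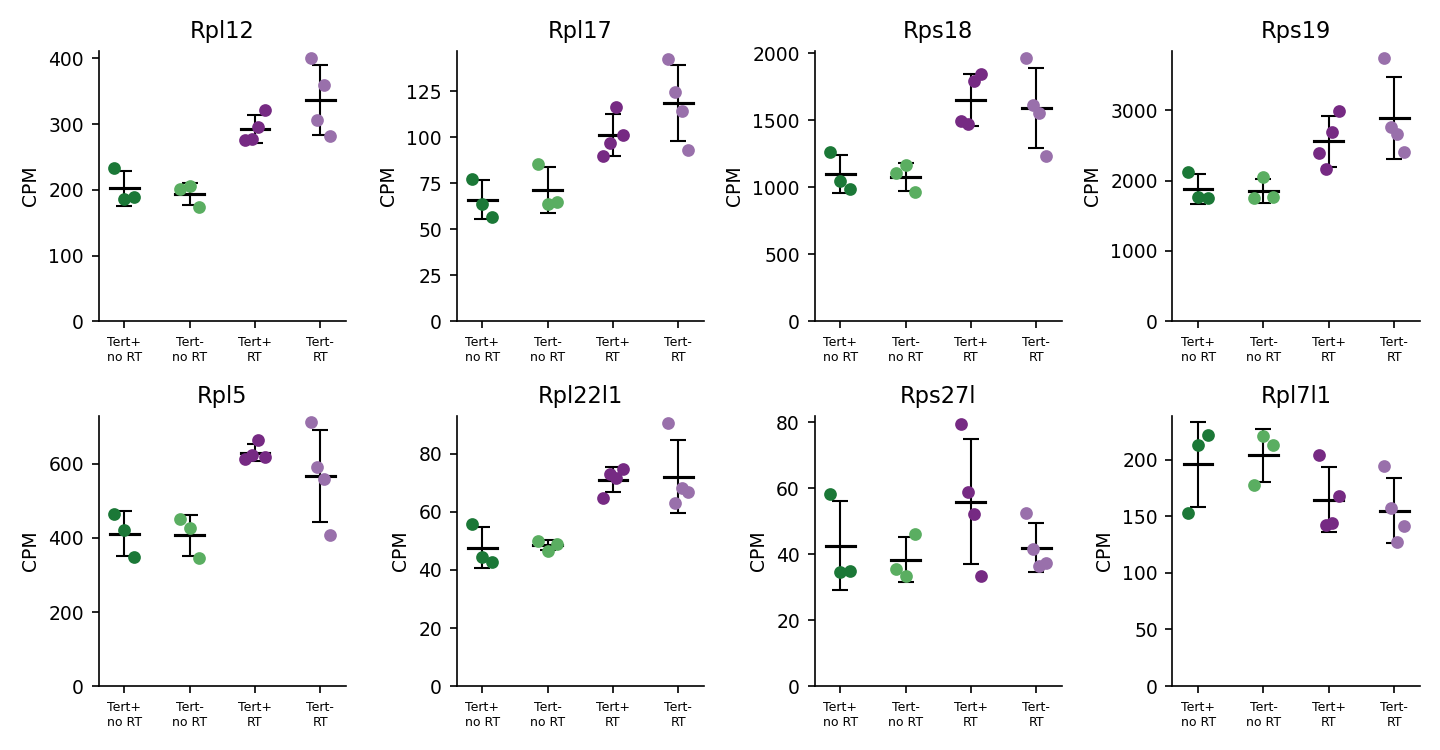
CPM per library for 8 ribosomal protein genes in the 4 groups; lines are group means and bars 1 SD (n = 3, 3, 4 and 4). Rpl12, Rpl17, Rps19 and Rpl22l1 do not overlap between states, while Rpl7l1 is lower after RT in group mean and Rps27l varies within Tert+ after RT from 33.3 to 79.5.

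Further genes among the 37 are named here. In the small subunit they included Rps23, Rps7, Rps3, Rps4x, Rps6, Rps20, Rps15, Rps27 and Rps21, with log2 fold changes from 0.35 (Rps6) to 0.57 (Rps7). In the large subunit they were Rpl22l1, described with the paralogs, and Rpl32, Rpl36, Rpl39, Rpl10a, Rpl36a, Rpl29, Rpl27a and Rpl30, with 0.43 (Rpl29) to 0.61 (Rpl39). Rps6, whose protein is phosphorylated downstream of mTORC1, ranged from 891.1 to 1245 CPM without RT and from 1168 to 1513 CPM after RT, so the states overlapped, and had 0.35 ± 0.10 (adjusted p = 0.0268). Rpl36, the highest gene per length, had 0.56 ± 0.14 (adjusted p = 0.0156). Of the genes named in this paragraph, Rps23 and Rpl22l1 kept their call in every leave-out of a single library, and the others in 4 to 13 of 14.

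The level of the family as a whole also differed between libraries of 1 group. Relative to each gene's mean without RT, the median gene stood at 0.32, -0.11 and -0.10 on the log2 scale in the unirradiated Tert+ libraries and at 0.07, -0.07 and -0.09 in the unirradiated Tert- libraries. After RT it stood at 0.10, 0.29, 0.52 and 0.47 in Tert+ and at 0.76, 0.43, 0.45 and 0.14 in Tert-. The libraries nearest to the unirradiated level were Tert+ replicate 1 and Tert- replicate 4, in which 57 and 59 of the 80 genes lay above that mean, and in the other 6 libraries after RT 69 to 78 did. Within a group the median SD of a ribosomal protein gene was 0.252 on the log2 scale, against 0.526 over all genes tested. This SD depends on how many counts a gene has, and the genes were not matched by level.

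The other 43 genes did not pass, and 42 of them had a positive log2 fold change. Among genes with a mean of at least 5 on the log2 CPM scale, the smallest were Rpl28 at 0.03 ± 0.14, Rpl8 at 0.09 ± 0.11 and Rps2 at 0.11 ± 0.13 (adjusted p = 0.931, 0.625 and 0.611). The abundant Rplp0 had 0.43 ± 0.15 (adjusted p = 0.0722), where 1 library without RT, Tert+ replicate 1 at 2830 CPM, lay above 7 of the 8 libraries after RT. Rps26, another gene mutated in Diamond-Blackfan anaemia, had 0.29 ± 0.15 (adjusted p = 0.229). The single gene with a negative value was Rpl7l1.

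Within each population fewer genes passed. In Tert- cells RT raised 1 of 80, Rpl12, with a log2 fold change of 0.80 ± 0.14 (adjusted p = 0.0203), and lowered 0, where 0.817% of all genes were higher and 0.804% lower. The call of 1 gene became 0 when unirradiated Tert- replicate 2 or 3, or Tert- after RT replicate 3, was left out, and 11 when unirradiated Tert+ replicate 1 was. At an unadjusted p under 0.05, 55 genes were higher and 1, Rpl7l1, lower, against 8.6 and 10.2% of all genes. In 43 of the 80 genes every Tert- library after RT lay above every Tert- library without RT, against 9.7% of all genes. The median log2 fold change was 0.48. The count of 1 is that of edgeR, while DESeq2 called 30 genes higher and limma voom 4.

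In Tert+ cells 0 of 80 passed in either direction (edgeR, by which 1.11% of all genes were higher and 0.873% lower), 24 were higher at an unadjusted p under 0.05 against 8.68% of all genes, and DESeq2 called 7 and limma voom 3. The smallest adjusted p was 0.0523, that of Rps27a. In 10 genes every Tert+ library after RT lay above every Tert+ library without RT, against 7.28% of all genes. The median log2 fold change was 0.28. Unirradiated Tert+ replicate 1, in which 74 of 80 genes lay above the mean of the libraries without RT, weighed on this: without it the median was 0.47 and 3 genes passed. Libraries after RT weighed on it in the other direction: without both Tert+ after RT replicates 3 and 4 the median was 0.13 and 0 genes passed by edgeR.

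The RT effects of both populations rest on separate libraries, and across the 80 genes they had a Pearson r of 0.817 and a Spearman rho of 0.767. This is a description across genes, which are not independent and share library depth and composition. The effect was larger in Tert- for 69 genes, with a median difference of -0.17 (Tert+ minus Tert-). That difference rested on single libraries: it was -0.01 without unirradiated Tert+ replicate 1 and -0.06 without Tert- after RT replicate 1. It was -0.11 without Tert+ after RT replicate 1, -0.25 without unirradiated Tert+ replicate 2, -0.27 without Tert- after RT replicate 4 and -0.34 without both Tert+ after RT replicates 3 and 4. The difference itself passed for 0 genes by edgeR (0% of all genes), and 0 had an unadjusted p under 0.05, against 3.63% of all genes. The widest differences were those of Rps21, -0.58 ± 0.32, and Rps27a, 0.45 ± 0.44 (adjusted p = 1.000 for both).

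**Figure D4:**
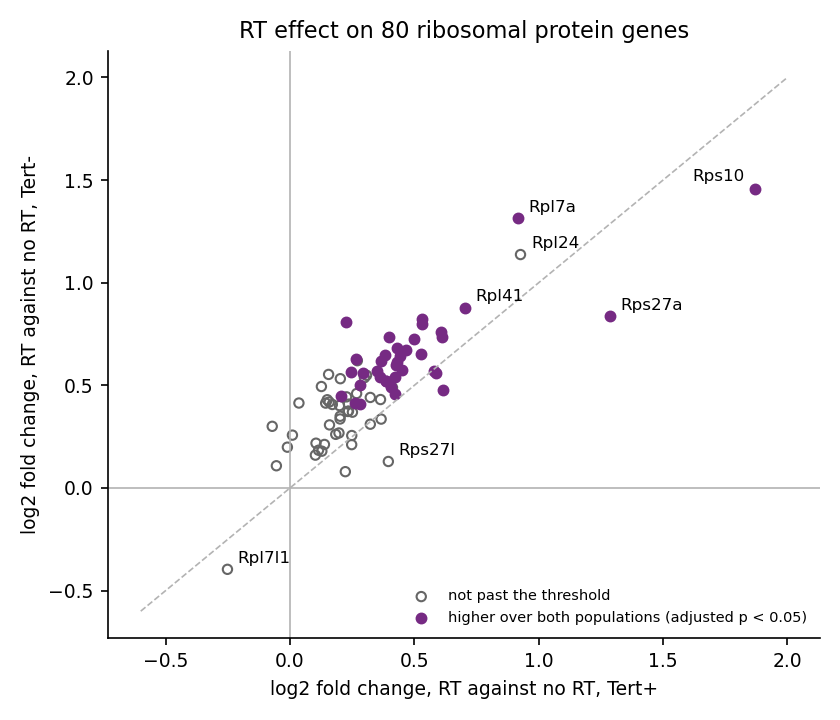
Log2 fold change of RT against no RT in Tert+ (horizontal) and Tert- (vertical) for the 80 tested genes; filled points are the 37 past the threshold over both populations and the dashed line marks equal values. Most points lie above the line, and Rpl7l1 is negative on both axes.

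No ribosomal protein gene passed the test between Tert+ and Tert- cells. Without RT, 0 of 80 genes passed in either direction (edgeR, 0 and 0.0377% of all genes higher and lower) and 0 had an unadjusted p under 0.05, against 4.5% of all genes, and the median log2 fold change (Tert+ over Tert-) was 0.07. Rps28 had 0.31 ± 0.25, Rps13 0.30 ± 0.16 and Rps27a -0.27 ± 0.33. Rps13 stood at 509.6, 400.0 and 378.3 CPM in Tert+ and 357.1, 377.8 and 313.9 CPM in Tert-, so the groups did not overlap, which was true of 3 genes higher in Tert+, among them Rpl36a (named after its values were seen), against 4.04% of all genes. After RT, 0 passed (edgeR, 0.00628% of all genes in each direction) and 0 had an unadjusted p under 0.05, against 7.39% of all genes, and the median was -0.08. Rps27l had 0.42 ± 0.26, Rps21 -0.41 ± 0.21 and Rpl21 -0.39 ± 0.20.

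Some ribosomal proteins have a second gene that can take the place of the usual one, and the pairs were followed as the variant's level per length in percent of the usual gene's. Rpl22l1, the paralog of Rpl22, rose after RT from 42.8 to 55.7 CPM (median 47.8) to 63.1 to 90.7 CPM (median 69.9), with no overlap (0.57 ± 0.12, adjusted p = 0.00630). Rpl22 had 0.31 ± 0.13 and did not pass (adjusted p = 0.137). Rpl22l1 stood at 63.0 ± 6.04% of Rpl22 in Tert+ and 64.2 ± 2.42% in Tert- without RT (SD, n = 3 each), and at 78.8 ± 8.97% and 74.5 ± 10.8% after RT (SD, n = 4 each). The change of the ratio itself was not tested, and its ranges overlapped.

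Rpl7l1, related to Rpl7 and needed for ribosome assembly, went the other way. It stood at 152.9, 212.9 and 222.2 CPM in Tert+ and 177.3, 221.2 and 213.3 CPM in Tert- without RT, and at 204.4, 142.4, 144.0 and 167.8 CPM in Tert+ and 194.2, 157.2, 127.4 and 141.3 CPM in Tert- after RT. The ranges overlapped, and the log2 fold change of -0.32 ± 0.13 did not pass (adjusted p = 0.106), although it did (adjusted p = 0.0482) when unirradiated Tert+ replicate 1 was left out. Its level was 20.8 ± 8.0% and 22.3 ± 3.16% of that of Rpl7 without RT and 14.6 ± 4.26% and 12.8 ± 1.63% after RT (Tert+ and Tert-, SD, n = 3 and 4).

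Rps27l, a gene that p53 can induce, stood at 58.2, 34.7 and 34.9 CPM in Tert+ and 35.4, 33.5 and 46.1 CPM in Tert- without RT. After RT it stood at 79.5, 58.8, 52.1 and 33.3 CPM in Tert+ and 52.6, 41.5, 36.5 and 37.2 CPM in Tert-, so all groups overlapped (0.26 ± 0.20, adjusted p = 0.410). It was at 5.12% of Rps27 in Tert+ and 5.04% in Tert- without RT, and at 5.87 and 3.94% after RT. Rps27 itself rose (0.39 ± 0.12, adjusted p = 0.0427).

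The variants known from testis and muscle were nearly silent. Rpl39l held 34 counts in Tert+ without RT, 0 in Tert- without RT, 0 in Tert+ after RT and 5 in Tert- after RT, while Rpl39 held 4912, 4210, 6980 and 6130. Rpl3l held 8, 6, 0 and 3 counts in the same order, against 64933 to 85606 for Rpl3. Rpl10l was listed at 0 throughout. Rps4l, annotated as a pseudogene and therefore outside the 83, was at 0.950 to 2.34% of Rps4x in the group means.

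Close copies limit how far a single gene's level can be read. Of 296 entries named after 60 of the genes with the ending -ps, 172 had counts, and 21 held more than 10% of the counts of the gene they are named after. Most are annotated as pseudogenes, but some, such as Rpl9-ps6 with 14804 counts, as protein coding. Rpl17-ps10 held 158% of the counts of Rpl17, and Rpl3-ps1 held 70404 counts, 23.8% of those of Rpl3. Together these entries took 0.185 ± 0.0248% of the counts without RT (SD, n = 6) and 0.271 ± 0.0335% after RT (SD, n = 8), 1.47 times as much, with no overlap. When their counts were added to the genes, 39 of 80 were higher after RT, 37 of them the same. Genes that share sequence under other names, such as Gm10275 with Rpl12 and Gm11361 with Rps18, are not among these entries and were not added.

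The genes also share sequence with other annotated genes, be these copies or genes with overlapping exons. Of all 50-base stretches of a gene's protein-coding transcripts, a median of 38.4% over the 80 genes also occurs, on either strand, in another annotated gene. For Rpl35 it was 95.1%, most often with Wdr38, and 66.2% of its exons overlap other genes, all on the opposite strand. Copies and overlaps were not told apart here. The median log2 fold change after RT was 0.38 for the 7 genes with under 10% shared, 0.37 for the 45 with 10 to 50% and 0.42 for the 28 with more. Of these, 3, 18 and 16 passed.

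Lists of other genes of translation differed among themselves, and their counts are to be read against the 6.36% of all genes that were higher and the 7% that were lower. Of 24 other TOP mRNAs and fused ribosomal proteins, 3 were higher after RT and 1 lower over both populations, with a median log2 fold change of 0.11. Among the higher were Fau (0.45, adjusted p = 0.0482), the fused ribosomal protein outside the rule, and Rack1 (0.29, adjusted p = 0.0489), which sits on the small subunit. Nap1l1, a histone chaperone, was lower (-0.62, adjusted p = 0.00293). The elongation factors Eef1a1 and Eef2, whose mRNAs carry the same tract, had 0.28 and -0.12 and did not pass (adjusted p = 0.214 and 0.525).

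Of 33 initiation factors, 2 were higher, near the share of all genes, and 5 lower, with a median of -0.09. Eif4a2, an RNA helicase, was higher (0.62, adjusted p = 7.56e-04) and Eif6, which keeps the large subunit from joining too early, was lower (-0.65, adjusted p = 0.00469). Of 85 genes of ribosome biogenesis and RNA polymerase I, 3 were higher and 8 lower, with a median of -0.08. Mdn1, which remodels the large subunit precursor, was higher (1.48, adjusted p = 0.00129), and Ubtf, the factor that opens rRNA genes for transcription (-0.49, adjusted p = 0.00762), and Dkc1, of rRNA pseudouridylation (-0.69, adjusted p = 0.0153), were lower. Of 77 mitochondrial ribosomal proteins 0 were higher and 8 lower, with a median of -0.19.

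**Figure D5:**
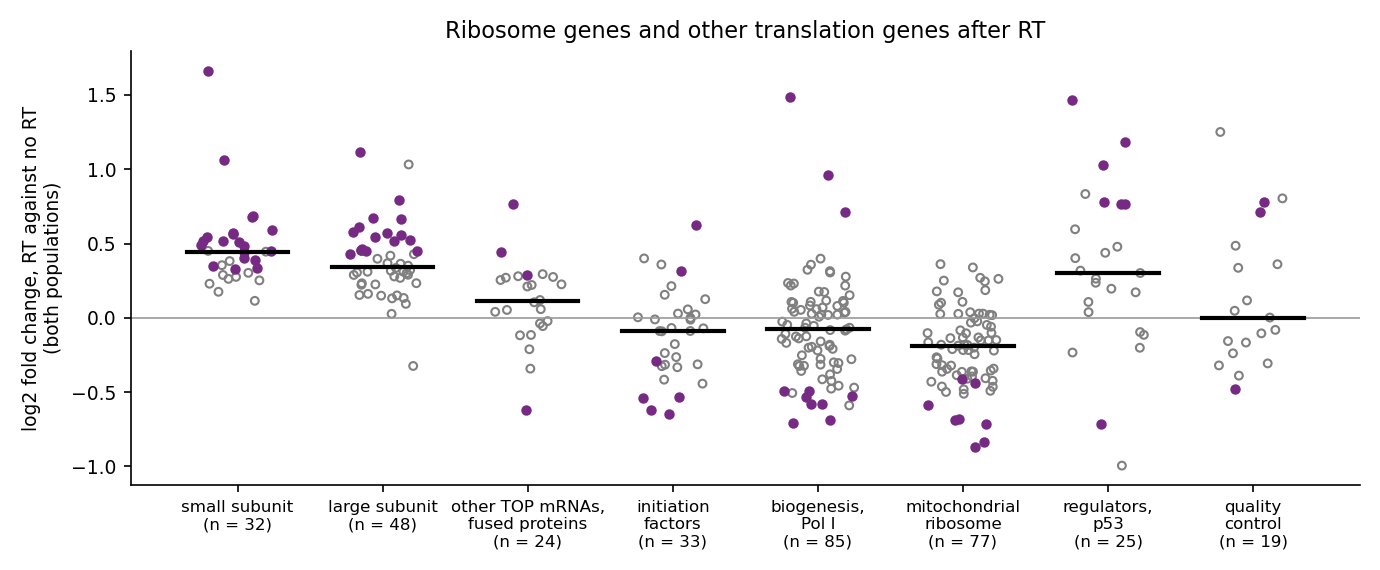
Log2 fold change of RT against no RT over both populations for each gene (points) of the small and large subunit and of 6 further lists; black lines are medians and filled points passed the threshold. The subunit medians are 0.44 and 0.34, that of the regulators is 0.30, and those of the other 5 lists run from -0.19 to 0.11.

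Of 25 regulators of ribosomal protein translation and p53 surveillance, 6 were higher and 1 lower, with a median of 0.30, not far from the 0.34 of the large subunit. Mdm4, a p53 inhibitor (1.18, adjusted p = 0.00192), Cdkn1a, the p53 target p21 (1.47, adjusted p = 0.0108), Sesn1, which restrains mTORC1 (0.77, adjusted p = 0.00226), and Mtor (0.77, adjusted p = 0.0417) were higher. Eif4ebp1, an mTORC1 substrate that restrains cap-dependent translation, was lower (-0.71, adjusted p = 0.00423). Of 19 genes of nascent chain and ribosome quality control, 2 were higher and 1 lower, with a median of 0.00. Usp16, a deubiquitinase that acts on the small subunit, was higher (0.71, adjusted p = 0.00210) and Edf1, a sensor of collided ribosomes, lower (-0.48, adjusted p = 0.0350).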

How the data were processed

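RNA counts of 14 libraries were used. Per the file headers, the authors deposited a table of read counts per gene with gene lengths in bases and mm10 positions. HISAT2 and mm10 are named in the submitters' processing notes, without a version. The counting program, its annotation and its treatment of reads that fit several genes are not given in the sources used here. Libraries were made from 1 ng of RNA, per the labels' protocols. Groups follow the sample titles. The labels do not say that replicates are separate animals, so p-values measure the spread between these libraries, which may be technical.

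edgeR 4.0.16 in R 4.3.3 was used for the counts. After filterByExpr, 15915 of 54532 genes were left, which were scaled by TMM, and fitted over all 14 libraries with a term per group and robust quasi-likelihood dispersions. Two-sided F tests gave p-values adjusted by Benjamini-Hochberg over all genes tested, with a threshold of 0.05. CPM are counts over the TMM-scaled total, and the SE of a log2 fold change is its size over the square root of F. DESeq2 1.42.0 and limma voom 3.58.1 were alternatives. The fit was tested on simulated data.

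Members and lists were chosen with earlier results of these data known, and the list of mitochondrial ribosomal proteins was added after the table had been read. Named were members past the threshold (up to 15 per comparison, by p), the 4 largest and 4 lowest log2 fold changes per comparison at a mean log2 CPM of at least 5, the 5 highest and 3 lowest levels per length, the paralog pairs, Rpl5, Rpl11, Rps19, Rps26 and Rpl23, and up to 4 genes per list and comparison. Of these the text gives those its statements rest on. Rps6, Rpl35 and others outside this rule were named after their values were seen, as examples of starts or of single counts or as further genes past the threshold. A few genes are counted but not reported here by name. Starts are those of RefSeq on GRCm38.p6. Positions of 83 genes were found in GENCODE M21, 81 with the same start and end. Shares over the family were given no test. No counting intervals are given.

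Same-numbered Tert+ and Tert- libraries deviated together with correlations of 0.106, 0.119 and -0.00 without RT and 0.03, 0.05, 0.03 and -0.05 after RT over all genes and, over the ribosomal protein genes alone, of 0.36, 0.43 and 0.19 without RT and -0.08, 0.44, 0.58 and -0.11 after RT. Since not every pair was over 0.1 in either set, the numbers were not taken as pairs. Same-numbered libraries of a state do carry adjacent library numbers, such as 1 and 2 or 9 and 10. The correlations cannot decide whether such libraries share an animal, since they rest on few libraries with each group's mean removed. The fit treated all 14 libraries as independent. With a shared animal, its SE over both populations could be too small.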

Additional observations from a re-analysis of the deposited data

Results flagged for a closer look

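Of 98 groups of 4 libraries examined for a single library far from the other 3, 3 stood out, and chance marks about 1 group in 20. In Tert- after RT, Rps12 stood at 191.0 CPM in replicate 1 against 85.0 to 93.8 CPM in the others. In the same group, Rps13 stood at 426.6 CPM in replicate 4 against 562.1 to 587.4 CPM in the others. In Tert+ after RT, the ratio of large to small subunit counts was 1.09 in replicate 1 against 1.06 to 1.07 in the others. Over all libraries this ratio was 1.15 ± 0.0303 without RT (SD, n = 6) and 1.09 ± 0.0272 after RT (SD, n = 8), with overlapping ranges of 1.11 to 1.20 and 1.06 to 1.15. Replicate 1 of Tert- after RT is the shallowest library, and its part in the value of Rps12 was not tested.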

How the results depend on the processing

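Over both populations, the count of 37 higher genes was 58 with library totals alone and 16 without both Tert+ after RT replicates 3 and 4, a pair that stood apart in earlier results. It ranged from 16 to 52 when each library was left out in turn (lower genes: 0 to 1, main 0). DESeq2 called 49 and limma voom 39. All 888 alternative values of the 37 genes were positive. The 37 were picked as higher in these same libraries, so this was likely beforehand and is no separate evidence. In every leave-out of a single library 16 of the 37 kept their call: Rpl12, Rpl17, Rpl22l1, Rpl26, Rpl41, Rpl5, Rpl7a, Rpl9, Rps13, Rps15a, Rps18, Rps19, Rps23, Rps24, Rps25 and Rps27a. In Tert- cells the count of 1 became 3 with TMM factors computed without the members, mitochondrially encoded and immunoglobulin genes, 15 with library totals, 4 with no filter, 30 with DESeq2, 4 with limma voom, 2 with pseudogene counts added and 2 without both Tert+ after RT replicates 3 and 4. It was 0 to 11 over single leave-outs. In Tert+ cells the count of 0 became 5 with library totals, 7 with DESeq2 and 3 with limma voom, and was 0 to 3 over single leave-outs. Why these counts moved was not tested.

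With replicate number as a block, the Tert+ count became 1 and that over both populations 31, of which 30 were among the 37. This block joined same-numbered libraries across the states, with and without RT, and no such set is known to share an animal. A block joining Tert+ with Tert- libraries within a state was not applied to these comparisons of RT with no RT. Over single leave-outs the median log2 fold change ran from 0.22 to 0.47 in Tert+, 0.35 to 0.60 in Tert-, 0.33 to 0.48 over both, -0.07 to 0.15 for Tert+ against Tert- without RT, -0.21 to 0.02 after RT and -0.27 to -0.01 for the difference of RT effects. Without both Tert+ after RT replicates 3 and 4 these medians were 0.13, 0.50, 0.32, 0.07, -0.26 and -0.34, in the same order. The family's share ran from 4.11 to 4.29% without RT and 5.58 to 5.90% after RT. The highest level over the median was 8.21 per length and 4.89 not per length.

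Signs turned for some values that had passed no test. Not all of these were near 0: Rplp0 between populations without RT was 0.23 ± 0.23 in the main fit. In Tert+ after RT, Rps2 became 0.0275 and Rpl28 0.0321 with library totals, and Rpl8 became 0.0093 with DESeq2 size factors, 0.0827 with library totals, 0.0096 with DESeq2, 0.0223 with limma voom and 0.0102 with the replicate block. Rpl23a without RT became 0.0712 with pseudogene counts added. Without both Tert+ after RT replicates 3 and 4, Rpl15 became -0.13 and Rps27a -0.21 between populations after RT, Rpl28 -0.0584 over both, and Rpl15 -0.18 in the difference of RT effects. Over single leave-outs, Rps2 ran from -0.22 to 0.22, Rpl28 from -0.13 to 0.0571 and Rpl8 from -0.11 to 0.18 in Tert+, Rpl15 from -0.0363 to 0.18 and Rpl28 from -0.10 to 0.25 in Tert-, and Rpl28 from -0.0794 to 0.11 over both. Between populations without RT, Rplp0 ran from -0.13 to 0.39, Rpl17 from -0.23 to 0.0236 and Rpl23a from -0.26 to 0.0577. In the difference of RT effects, Rpl7l1 ran from -0.0161 to 0.27 and Rpl15 from -0.0092 to 0.34.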
